A study of Mus musculus with 11 samples.

Results

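The 46 genes described here make the proteins that copy DNA in S phase of the cell cycle. They were chosen by name, as the DNA replication and S-phase genes of the mouse, and not by their level in these samples. A gene was to be dropped if its level was under 10 in more than 9 of the 11 samples, and 46 of 46 were kept out of 21860 genes in the table. All 46 were also among the 13095 genes tested. They fall into 9 roles: origin licensing and the MCM2-7 helicase (Orc1, Orc6, Cdc6, Cdt1, Mcm2, Mcm3, Mcm4, Mcm5, Mcm6, Mcm7), helicase activation (Mcm10, Cdc45, Gins1, Gins2, Gins3, Gins4), the sliding clamp and its loader (Pcna, Rfc2, Rfc3, Rfc4, Rfc5), polymerases and primase (Pola1, Pola2, Prim1, Prim2, Pold1, Pole, Pole2), nucleotide supply (Rrm1, Rrm2, Tyms, Tk1, Dut), single-strand binding and joining of Okazaki fragments (Rpa1, Rpa2, Fen1, Lig1), chromatin copying and histone mRNA (Chaf1a, Chaf1b, Uhrf1, Slbp), the G1/S switch (E2f1, Ccne1, Ccne2), and checkpoint signalling and uracil removal (Clspn, Ung).

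Replication is prepared in G1, when the origin recognition complex, Cdc6 and Cdt1 load the ring-shaped MCM helicase onto DNA in an inactive form. At S phase entry, cyclin E kinases and E2F transcription factors switch on, Cdc45 and the GINS complex turn the ring into a moving helicase, and primase, polymerases, clamp and ligase follow at the fork. Cells that leave the cycle shut down most of these genes, and Langerhans cells, which are phagocytes of the epidermis, renew themselves there by slow division.

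The samples were cells with low CD11b and surface EpCAM, sorted on day 6 from cultures of mouse bone marrow monocytes and profiled by bulk RNA sequencing to ask how Notch ligand and aryl hydrocarbon receptor (Ahr) signals act together. All 5 groups received GM-CSF (20 ng/ml), a growth factor of monocytes. The single Jag1 only sample had GM-CSF and Jag1 alone, and the other 4 groups also had TGFβ (5 ng/ml) and IL-34 (8 µg/ml), which push monocytes toward Langerhans-like cells. TGFβ/IL-34 had these alone in 2 samples, and with FICZ added (TGFβ/IL-34/FICZ) there were 2 more. Jag1 was added in 3 samples (TGFβ/IL-34/Jag1), and Jag1 together with FICZ in another 3 (TGFβ/IL-34/Jag1/FICZ). Jag1, a ligand of Notch receptors, came from OP9-Jag1, a mouse stromal cell line. FICZ is a tryptophan photoproduct that binds Ahr, and its dose is not given in the labels. The study's text calls it an agonist and reports that the Ahr target Cyp1a1 was activated in these bulk samples. The deposited design text calls it an antagonist. The labels name OP9 co-culture for every sample, and whether cultures without Jag1 held plain OP9 cells is not given per sample. The protocols seed fewer monocytes per well on stroma than without it, so Jag1, stroma and seeding density cannot be told apart. No genotype or strain is given in the labels for the donors of the marrow, and no label says that replicates came from separate animals, so p-values measure the spread between these samples. In bulk samples a smaller share of dividing cells and less RNA per cell cannot be told apart.

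Levels are normalised read counts, that is, salmon estimates summed per gene that the authors scaled with DESeq2. Whether that scaling also held a correction for transcript length is not given in the sources used here, and the values per length and the relations to length below are of the values as scaled. They summed to 21.3 to 27.8 M per sample. Replicate 1 of TGFβ/IL-34/FICZ stood apart from its partner. The median absolute difference between the pair was 0.51 on the log2 scale over the 46 genes and 0.72 over 13070 genes with a known length, against 0.14 to 0.45 and 0.16 to 0.33 in the other pairs of replicates. It was the highest of the 11 samples for 18 of the 46 genes, and its difference from replicate 2 ran against transcript length (Spearman's rho −0.30 across the 46 genes and −0.46 across the 13070, as a description, since genes are not independent replicates). It shared a flow cell code with 1 other sample, TGFβ/IL-34/Jag1/FICZ replicate 1, and the other 9 samples carried another code. Within TGFβ/IL-34/Jag1, replicate 1 was the lowest of the 3 for 31 of the 46 genes, and its differences from replicates 2 and 3 also ran against transcript length across the 46 (rho −0.52 and −0.50) but not across all genes (0.00 and −0.07). Numbers of the 46 genes called in comparisons that rest on this TGFβ/IL-34/FICZ library are given with and without it. Results for other gene lists are given only with it. EpCAM, the sort marker, was present in every group (Epcam at 657 in Jag1 only and between 3952 and 14377 in the other 10 samples).

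Many replication genes carry E2F sites before their start, so promoter sequence is shown for the genes on which the results turn: the genes with the largest called change with FICZ on Jag1 stroma among licensing, helicase activation and clamp genes (Mcm5, Mcm10 and Pcna) and among all 46 (Rrm2), and Mcm6, which held the most E2F words (the last pair chosen after their values were seen). Pole, chosen in the same way among polymerase and primase genes, had no promoter sequence to show. Each sequence shown is the 250 bases before the RefSeq start in GRCm38.p6, from 5′ to 3′ on the strand of the gene. Capitals mark E2F words (TTTCCCGC, TTTCGCGC, TTTGCCGC or TTTGGCGC) and CCAAT boxes (CCAAT) on either strand, so that ATTGG is a CCAAT box on the other strand and overlapping E2F words run together.
Mcm5 (chr8:75109259-75109508, plus strand): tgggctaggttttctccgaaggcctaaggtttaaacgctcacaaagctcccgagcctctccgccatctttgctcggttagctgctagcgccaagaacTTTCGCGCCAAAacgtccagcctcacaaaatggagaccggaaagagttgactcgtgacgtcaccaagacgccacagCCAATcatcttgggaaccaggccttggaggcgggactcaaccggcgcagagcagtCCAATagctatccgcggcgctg
Mcm6 (chr1:128359706-128359955, minus strand): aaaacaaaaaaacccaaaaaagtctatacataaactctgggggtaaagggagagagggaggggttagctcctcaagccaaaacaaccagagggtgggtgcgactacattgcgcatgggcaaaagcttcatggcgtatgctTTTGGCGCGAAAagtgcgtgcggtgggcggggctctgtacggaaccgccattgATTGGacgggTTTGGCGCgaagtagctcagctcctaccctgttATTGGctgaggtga
Mcm10 (chr2:5012792-5013041, minus strand): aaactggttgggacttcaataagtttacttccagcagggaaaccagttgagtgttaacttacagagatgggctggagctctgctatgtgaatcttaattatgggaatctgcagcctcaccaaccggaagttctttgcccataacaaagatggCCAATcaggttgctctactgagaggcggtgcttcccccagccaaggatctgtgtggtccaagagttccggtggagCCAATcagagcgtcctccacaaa
Pcna (chr2:132253181-132253430, minus strand): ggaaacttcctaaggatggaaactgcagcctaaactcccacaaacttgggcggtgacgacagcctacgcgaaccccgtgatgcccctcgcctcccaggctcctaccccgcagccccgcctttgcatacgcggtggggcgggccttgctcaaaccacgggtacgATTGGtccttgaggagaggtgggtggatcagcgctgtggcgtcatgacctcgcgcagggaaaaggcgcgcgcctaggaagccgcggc
Rrm2 (chr12:24708004-24708253, plus strand): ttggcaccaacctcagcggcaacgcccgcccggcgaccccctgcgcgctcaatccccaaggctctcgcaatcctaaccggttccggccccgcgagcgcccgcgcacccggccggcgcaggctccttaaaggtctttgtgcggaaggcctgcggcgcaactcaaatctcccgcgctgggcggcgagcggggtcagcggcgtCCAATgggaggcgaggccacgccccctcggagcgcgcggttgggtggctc
Mcm5 and Mcm6 held overlapping E2F words on opposite strands, while in Mcm10, Pcna and Rrm2 these letters were not found in the window and a CCAAT box was. Over windows of 250 bases before to 50 after the start, which the RefSeq table gave for 38 of the 46 genes, 15 (39.5%) held an E2F word against 2.6% of 27025 genes. They were Cdc6, Cdt1, Clspn, Gins3, Lig1, Mcm3, Mcm5, Mcm6, Mcm7, Orc1, Pola1, Pold1, Pole2, Rfc3 and Uhrf1. For motifs, all genes means the 27025 with a promoter, expressed here or not, and not the 13095 tested. A CCAAT box was found in 22 of 38 (57.9%, against 41.1% of all genes). The core of the dioxin response element to which Ahr binds (GCGTG, either strand) was found in 19 of 38, against 35.2% of all genes. It was found in 11 of the 25 genes called for FICZ with Jag1 and in 8 of the 13 not called. The cell cycle homology region of late cell cycle genes (TTTGAA) was found in 4 of 38 (10.5%, against 20.2%). A match is a string of letters and was not tested for binding.

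The summed level of the 46 genes was lowest in TGFβ/IL-34/Jag1 and highest in the groups with FICZ. It was 20929 in Jag1 only, 24657 and 26853 in TGFβ/IL-34, 38125 and 35341 in TGFβ/IL-34/FICZ, 15795, 20881 and 19195 in TGFβ/IL-34/Jag1, and 36198, 39840 and 37741 in TGFβ/IL-34/Jag1/FICZ. The groups without FICZ did not overlap those with it. As a share of all normalised counts the range ran from 0.0675% in replicate 1 of TGFβ/IL-34/Jag1 to 0.184% in replicate 2 of TGFβ/IL-34/Jag1/FICZ. The lowest of the 11 values was in a TGFβ/IL-34/Jag1 sample for 30 of the 46 genes (replicate 1 for 23 of them) and in Jag1 only for 11. The heat map of the genes by sample shows this layout.

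**Figure D1:**
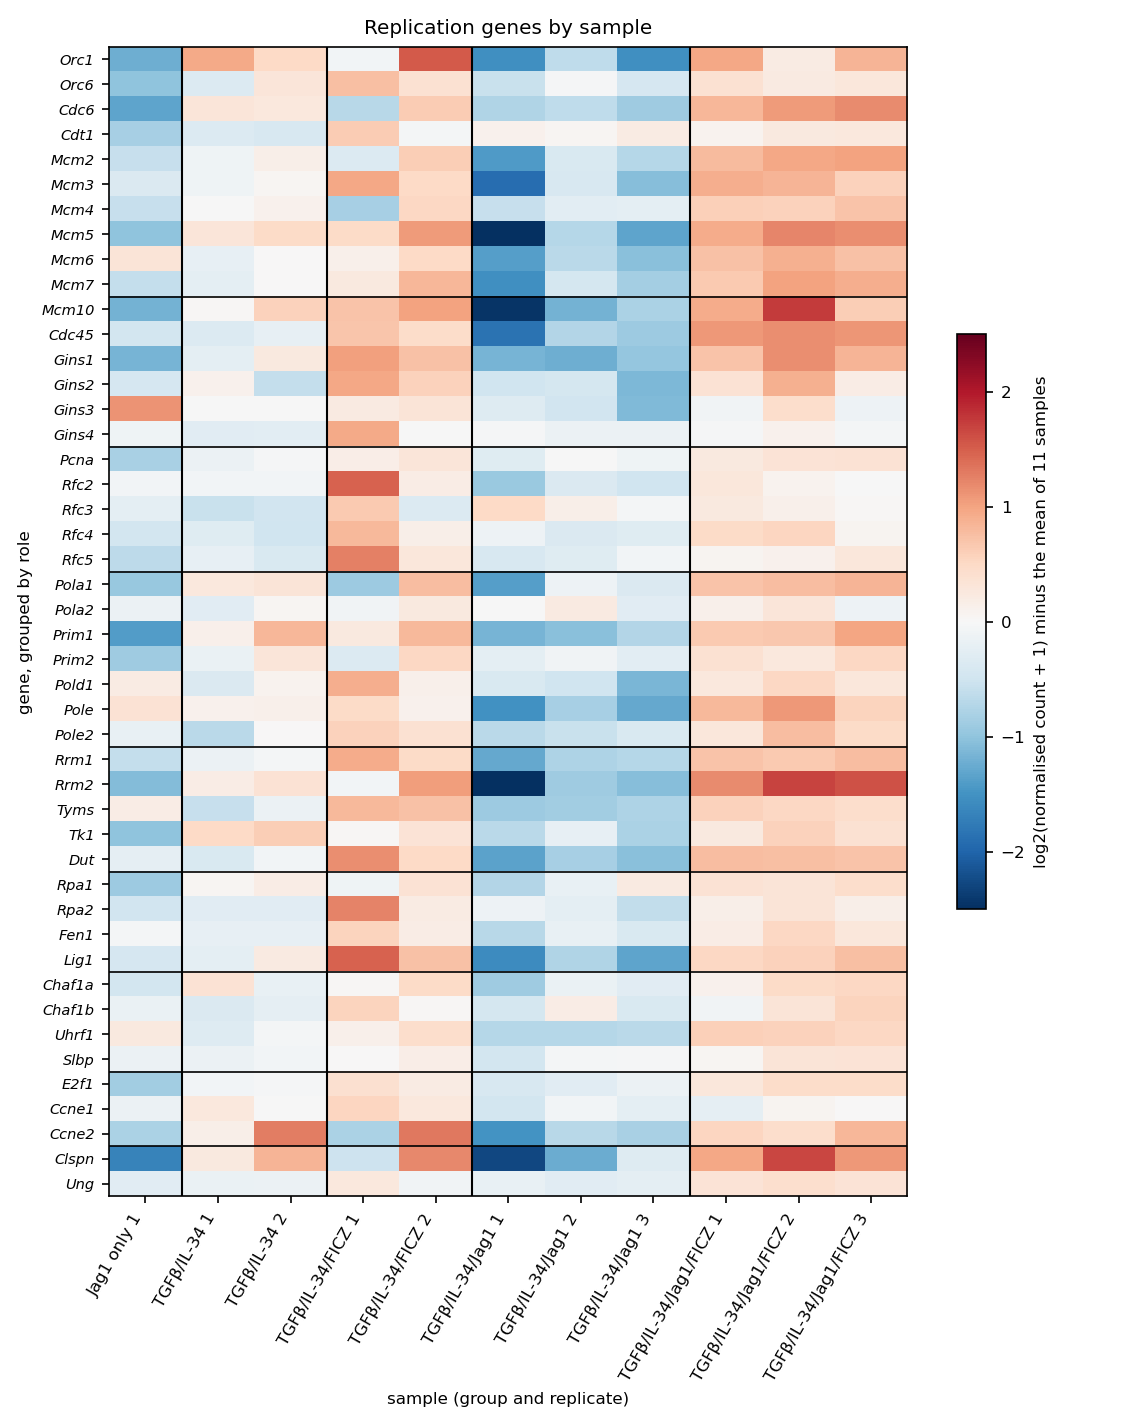
Each row is 1 of the 46 replication genes, in blocks by role from licensing (top) to checkpoint and uracil removal (bottom), and each column is 1 of the 11 samples. Colour is log2(normalised count + 1) minus the gene's mean over the 11 samples, and the colour scale ends at 2.5 in either direction. Blue dominates in TGFβ/IL-34/Jag1, which holds the lowest value for 30 genes, and red in TGFβ/IL-34/Jag1/FICZ, which holds the highest for 23.

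Most replication genes rose when FICZ was added to cultures with TGFβ, IL-34 and Jag1. Of the 46, 29 rose and 0 fell (limma, adjusted p under 0.05 over 13095 genes), against 10.9% of all genes that rose and 6.71% that fell. A log2 fold change above 0 was found for 45 of 46 (49.3% of all genes), and 37 had an unadjusted p under 0.05 (30.2% of all genes). The median log2 fold change was 1.04, against −0.01 over all genes tested. For 40 of the 46, all 3 samples with FICZ lay above all 3 without it, against 23.6% of all genes. When each of the 6 samples was left out in turn, 19 to 23 rose, and the 19 came from dropping TGFβ/IL-34/Jag1/FICZ replicate 2. The calls of 18 genes were kept in every such fit and in every other alternative tried: Cdc6, Mcm2, Mcm3, Mcm5, Mcm6, Mcm7, Mcm10, Cdc45, Gins1, Prim1, Pole, Rrm1, Rrm2, Tyms, Dut, Lig1, Uhrf1 and Clspn. Each of the other 11 lost its call without at least 1 of the 6 samples, and Mcm4, Pcna, Pola1, Pole2 and Chaf1a lost it without any 1 of them.

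Markers of other cell types moved in the same comparison, in which 10.9% of all genes rose and 6.71% fell. Of 10 granulocyte progenitor genes, 8 rose, and their summed level went from 213 to 326 in TGFβ/IL-34/Jag1 to 8499 to 13321 with FICZ. Of 6 mast cell or basophil genes tested, 5 rose (sums 1839 to 2983 against 10090 to 13152, with Fcer1a at 0 in all samples), and of 5 monocyte genes tested, 4 rose (605 to 1175 against 5528 to 6958). The 8 Langerhans cell genes summed to 336599 to 358651 against 89530 to 154852, with Cd207, Cldn1 and Mfge8 lower. Mfge8 alone stood at 260985 to 275951 against 39376 to 93422, and 1 of the 8, Id2, had a log2 fold change above 0 (0.49). Of 9 stromal genes tested, 3 rose (Thy1, Col5a1 and Pdgfrb). Thy1 also stood at 12178 and 3578 in TGFβ/IL-34/FICZ, without Jag1, where Col5a1 and Pdgfrb were above 0 too. Col1a1, Col1a2, Col3a1, Bgn, Sparc and Fbln2 were at 0 in that group and were not called here. The 11 listed stromal genes other than Thy1 summed to 407 to 1099 against 744 to 4908, with Dcn and Lum at 0 in all 6 samples. Lymphocyte genes summed to at most 37.6 and erythroid genes to at most 27.0 in any sample. The part of these cells in the change of the replication genes was not tested.

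**Figure D2:**
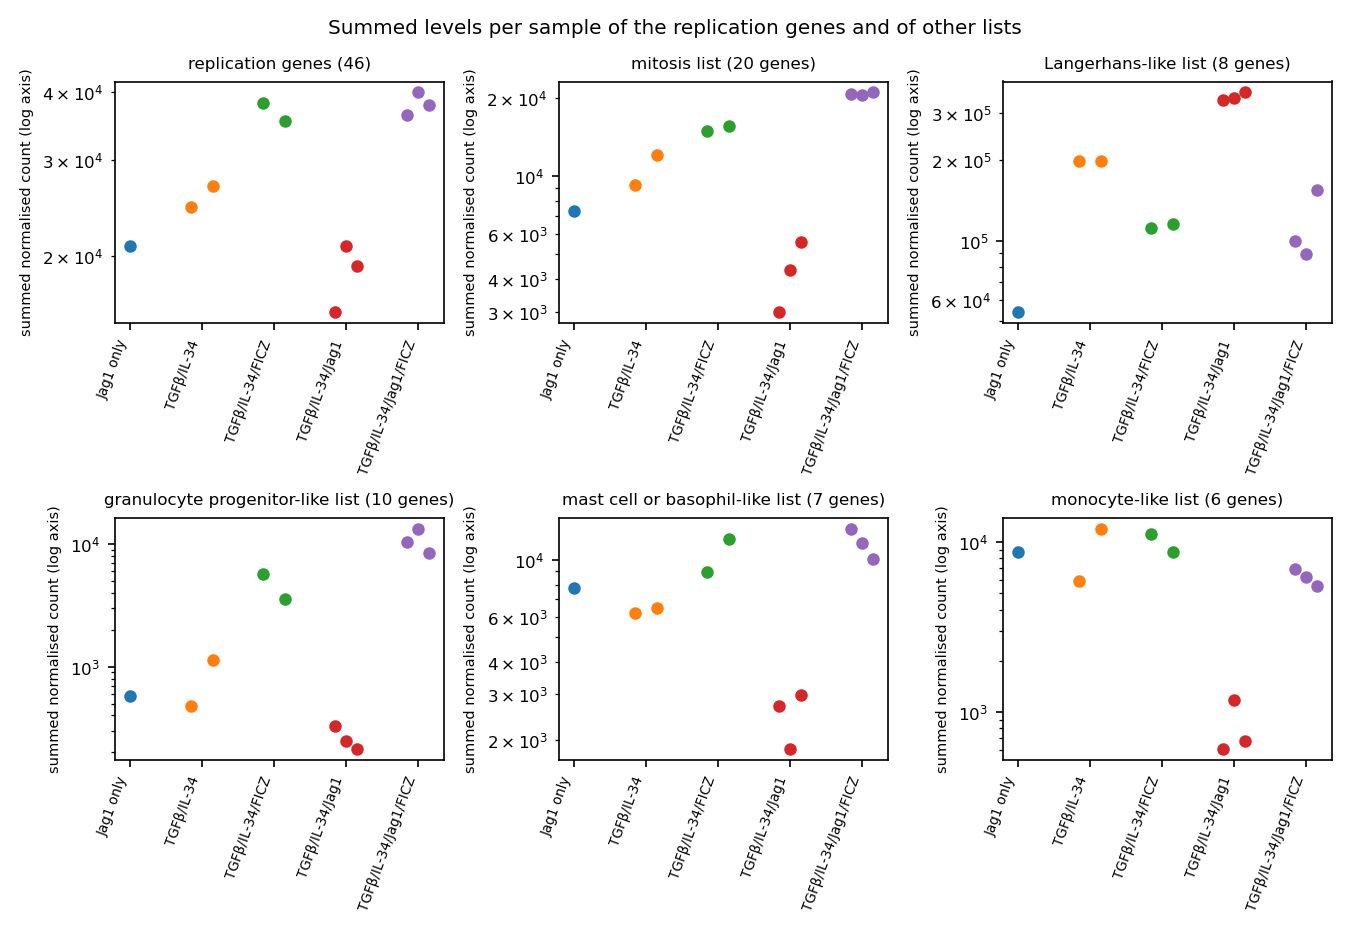
Each panel gives the summed normalised count of a gene list in each of the 11 samples (points) by culture group, on a log axis. The replication genes, the mitosis genes and the granulocyte progenitor, mast cell and monocyte lists were lowest in TGFβ/IL-34/Jag1, while the Langerhans list was highest there, at 336599 to 358651. Mfge8 alone made up 260985 to 275951 of the Langerhans sums in that group. Of the 8 Langerhans genes, 1 was called higher there than in TGFβ/IL-34, and 3 had log2 fold changes below 0.

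Licensing genes rose together, 8 of 10. Mcm5, a subunit of the helicase ring, changed most among them. Its level was 309 in Jag1 only, 769 and 869.8 in TGFβ/IL-34, 860.2 and 1300.2 in TGFβ/IL-34/FICZ, 100.3, 376 and 247 in TGFβ/IL-34/Jag1, and 1187, 1456 and 1392 in TGFβ/IL-34/Jag1/FICZ. All 3 samples with Jag1 and FICZ lay above all 3 with Jag1 but no FICZ, a 6.34-fold difference on the fitted scale (log2 fold change 2.67 ± 0.40 (SE) at an adjusted p of 0.00131). Mcm2, another subunit of the ring and a common marker of cycling cells, stood at 498 in Jag1 only, 686 and 819 in TGFβ/IL-34, 586 and 1145 in TGFβ/IL-34/FICZ, 277, 569.7 and 454 in TGFβ/IL-34/Jag1, and 1284, 1462 and 1489 in TGFβ/IL-34/Jag1/FICZ (log2 fold change 1.76 ± 0.30 (SE) at an adjusted p of 0.00262), again without overlap. The other subunits rose by 0.99 (Mcm4) to 1.90 (Mcm3) on the log2 scale. Per kilobase of the canonical transcript, Mcm6 had the highest level of the 6 subunits in every group, at 239 ± 59.7 (SD, n = 3) in TGFβ/IL-34/Jag1 and 825 ± 50.4 (SD, n = 3) with FICZ, and Mcm5 went from 52.4 ± 30.0 to 292 ± 30.5 per kilobase. In TGFβ/IL-34/Jag1 the level of Mcm5 per kilobase was the lowest of the 6, although its range (21.8 to 81.7) overlapped that of Mcm3 (56.0 to 159). The ATPase subunit of the origin recognition complex, Orc1, stood at 39.2 in Jag1 only, 178 and 131 in TGFβ/IL-34, 88.0 and 270.3 in TGFβ/IL-34/FICZ, 31.5, 59.0 and 31.3 in TGFβ/IL-34/Jag1, and 182, 107 and 167 in TGFβ/IL-34/Jag1/FICZ (log2 fold change 1.91 ± 0.45 (SE) at an adjusted p of 0.0149). Its adjusted p over the alternatives ran from 0.00261 to 0.0667, and its call was lost without replicate 1 or 3 of either group. The MCM loader Cdc6 rose by 1.79. Orc6 had a log2 fold change of 0.64 ± 0.25 (SE) at an adjusted p of 0.107. Cdt1, which works with Cdc6 to load the ring and is destroyed as a protein in S phase, stood apart from its partners: its level was 378 in Jag1 only, 529 and 513 in TGFβ/IL-34, 1055 and 657 in TGFβ/IL-34/FICZ, 726, 699 and 780.4 in TGFβ/IL-34/Jag1, and 719, 805 and 816 in TGFβ/IL-34/Jag1/FICZ. The groups with and without FICZ overlapped (log2 fold change 0.08 ± 0.19 (SE) at an adjusted p of 0.83).

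Of the 6 helicase activation genes 4 rose. Mcm10, which helps start the helicase, stood at 52.1 in Jag1 only, 123 and 179.5 in TGFβ/IL-34, 197 and 240.3 in TGFβ/IL-34/FICZ, 20.9, 52.0 and 68.7 in TGFβ/IL-34/Jag1, and 229, 405 and 185 in TGFβ/IL-34/Jag1/FICZ. The lowest value with Jag1 and FICZ was well above the highest with Jag1 but no FICZ (log2 fold change 2.58 ± 0.45 (SE) at an adjusted p of 0.00305). Cdc45, which joins the ring and GINS in the active helicase, stood at 106 in Jag1 only, 116 and 127 in TGFβ/IL-34, 238 and 203 in TGFβ/IL-34/FICZ, 40.0, 87.4 and 77.5 in TGFβ/IL-34/Jag1, and 311, 328 and 315 in TGFβ/IL-34/Jag1/FICZ. It was the highest of the 5 groups in TGFβ/IL-34/Jag1/FICZ, with no sample of another group in its range (log2 fold change against TGFβ/IL-34/Jag1 2.28 ± 0.30 (SE) at an adjusted p of 0.000657). The GINS subunits form 1 complex, and 2 of the 4 rose. The log2 fold change was 2.02 for Gins1 and 1.16 for Gins2 (adjusted p = 0.0015 and 0.0174), and 0.71 for Gins3 and 0.12 for Gins4 (adjusted p = 0.0741 and 0.791). Differences between these subunits were not tested. Gins4 stood at 493 in Jag1 only, 435 and 438 in TGFβ/IL-34, 1024 and 523 in TGFβ/IL-34/FICZ, 519, 477 and 478 in TGFβ/IL-34/Jag1, and 519.5, 571 and 514 in TGFβ/IL-34/Jag1/FICZ, and apart from replicate 1 of TGFβ/IL-34/FICZ its values spanned 435 to 571.

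The clamp and its loader had the lowest median log2 fold change of the 9 roles (0.45), with 1 of 5 called. Pcna, the ring that holds polymerases on DNA, stood at 1138 in Jag1 only, 1805 and 1966 in TGFβ/IL-34, 2230.1 and 2452 in TGFβ/IL-34/FICZ, 1621, 1975 and 1865 in TGFβ/IL-34/Jag1, and 2361, 2516 and 2563 in TGFβ/IL-34/Jag1/FICZ. Its groups did not overlap, but the difference was small (1.37-fold, log2 fold change 0.45 ± 0.14 (SE) at an adjusted p of 0.0457). When samples were paired by replicate number the call was lost (adjusted p = 0.0513), and over all alternatives the adjusted p ran from 0.00848 to 0.153. Rfc3, a subunit of the loader that opens the clamp, was the only gene of the 46 with a negative log2 fold change in this comparison. It stood at 259 in Jag1 only, 209 and 221 in TGFβ/IL-34, 484 and 245 in TGFβ/IL-34/FICZ, 434, 341 and 300.4 in TGFβ/IL-34/Jag1, and 364, 339 and 316 in TGFβ/IL-34/Jag1/FICZ (log2 fold change −0.06 ± 0.27 (SE) at an adjusted p of 0.915). The other loader subunits had log2 fold changes of 0.42 (Rfc5) to 0.72 (Rfc2), with adjusted p-values of 0.115 to 0.293.

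Of 7 polymerase and primase genes 5 rose. Pole, the catalytic subunit of the leading strand polymerase, stood at 334 in Jag1 only, 282 and 284 in TGFβ/IL-34, 366 and 279 in TGFβ/IL-34/FICZ, 91.4, 147 and 107 in TGFβ/IL-34/Jag1, and 459.7, 552 and 384 in TGFβ/IL-34/Jag1/FICZ. Values in TGFβ/IL-34/Jag1 were the lowest of the 5 groups and those with Jag1 and FICZ the highest (log2 fold change 2.02 ± 0.24 (SE) at an adjusted p of 0.000424). Prim1, the catalytic primase subunit, stood at 45.1 in Jag1 only, 131 and 215 in TGFβ/IL-34, 143 and 209.6 in TGFβ/IL-34/FICZ, 52.8, 57.9 and 71.6 in TGFβ/IL-34/Jag1, and 189, 192 and 237 in TGFβ/IL-34/Jag1/FICZ (log2 fold change 1.75 ± 0.29 (SE) at an adjusted p of 0.00227). Pola1 rose by 1.40, Pole2 by 1.05 and Pold1, of the lagging strand polymerase, by 1.03, on the log2 scale. The accessory subunit Pola2 stood at 549.6 in Jag1 only, 499.7 and 629 in TGFβ/IL-34, 571 and 717 in TGFβ/IL-34/FICZ, 599, 711 and 498 in TGFβ/IL-34/Jag1, and 665, 746 and 556 in TGFβ/IL-34/Jag1/FICZ. Its groups overlapped (log2 fold change 0.13 ± 0.20 (SE) at an adjusted p of 0.754), and Prim2 had a log2 fold change of 0.58 ± 0.27 (SE) at an adjusted p of 0.178.

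All 5 genes of nucleotide supply rose. Rrm2, the small subunit of ribonucleotide reductase, which limits the making of deoxynucleotides and is made in S phase, changed most of the 46. Its level was 211 in Jag1 only, 513 and 579 in TGFβ/IL-34, 425 and 929 in TGFβ/IL-34/FICZ, 56.6, 242 and 213 in TGFβ/IL-34/Jag1, and 1012, 1456 and 1345 in TGFβ/IL-34/Jag1/FICZ. The lowest sample was replicate 1 of TGFβ/IL-34/Jag1, and values with Jag1 and FICZ were 8.72-fold higher on the fitted scale (log2 fold change 3.12 ± 0.50 (SE) at an adjusted p of 0.00187). Its partner subunit Rrm1 rose by 1.63. Dut, which keeps uracil out of DNA by clearing dUTP, rose by 1.81. Tyms, which makes dTMP, stood at 455 in Jag1 only, 269 and 360.5 in TGFβ/IL-34, 703 and 659.8 in TGFβ/IL-34/FICZ, 212, 219 and 232 in TGFβ/IL-34/Jag1, and 594, 575 and 542 in TGFβ/IL-34/Jag1/FICZ. The spread within each of the groups with Jag1 was small beside the difference between them (log2 fold change 1.36 ± 0.18 (SE) at an adjusted p of 0.000606). Tk1, which salvages thymidine, stood at 214 in Jag1 only, 606 and 662 in TGFβ/IL-34, 437 and 547 in TGFβ/IL-34/FICZ, 269, 375 and 249 in TGFβ/IL-34/Jag1, and 507, 639 and 562 in TGFβ/IL-34/Jag1/FICZ. It rose with FICZ among Jag1 cultures (log2 fold change 0.95 ± 0.21 (SE) at an adjusted p of 0.0106), yet its highest value of all samples, 662, was in TGFβ/IL-34 without either signal. Dropping TGFβ/IL-34/Jag1/FICZ replicate 2 ended the call.

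At the fork and behind it, Lig1, which seals Okazaki fragments, stood at 332 in Jag1 only, 375 and 519.9 in TGFβ/IL-34, 1229 and 737 in TGFβ/IL-34/FICZ, 147, 262 and 176 in TGFβ/IL-34/Jag1, and 635, 664 and 749.8 in TGFβ/IL-34/Jag1/FICZ. Its groups did not overlap (log2 fold change 1.84 ± 0.27 (SE) at an adjusted p of 0.0012). Fen1, which trims those fragments, rose by 0.75, while the single-strand binding subunits Rpa1 and Rpa2, used in repair as well, had log2 fold changes of 0.61 and 0.53 (adjusted p = 0.103 and 0.211). Uhrf1, which guides maintenance methylation to newly copied DNA, stood at 1108 in Jag1 only, 746 and 904 in TGFβ/IL-34, 1029.6 and 1270.2 in TGFβ/IL-34/FICZ, 569, 574 and 589 in TGFβ/IL-34/Jag1, and 1421, 1391 and 1341 in TGFβ/IL-34/Jag1/FICZ. The 3 values with Jag1 but no FICZ lay within 569 to 589 and those with FICZ within 1341 to 1421 (log2 fold change 1.26 ± 0.15 (SE) at an adjusted p of 0.000388). Chaf1a, of the histone chaperone CAF-1, rose by 0.81 (adjusted p = 0.0495, 0.0179 to 0.165 over the alternatives, and 0.0577 when paired by replicate number). Its partner Chaf1b stood at 233 in Jag1 only, 204 and 225 in TGFβ/IL-34, 390.0 and 269 in TGFβ/IL-34/FICZ, 193, 299 and 202 in TGFβ/IL-34/Jag1, and 248, 330.4 and 389 in TGFβ/IL-34/Jag1/FICZ, and the groups overlapped (log2 fold change 0.48 ± 0.26 (SE) at an adjusted p of 0.269). Slbp, which binds the stem-loop of histone mRNA, stood at 765 in Jag1 only, 764 and 809 in TGFβ/IL-34, 849 and 947 in TGFβ/IL-34/FICZ, 613, 820.4 and 826 in TGFβ/IL-34/Jag1, and 877, 1053 and 1072 in TGFβ/IL-34/Jag1/FICZ. The difference was small and was not called (log2 fold change 0.42 ± 0.17 (SE) at an adjusted p of 0.132).

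Of the G1/S genes, E2f1, an activator of S-phase transcription, stood at 264 in Jag1 only, 460.0 and 470.3 in TGFβ/IL-34, 638 and 552 in TGFβ/IL-34/FICZ, 366, 395 and 433 in TGFβ/IL-34/Jag1, and 584, 663 and 667 in TGFβ/IL-34/Jag1/FICZ. It rose with FICZ without overlap (log2 fold change 0.68 ± 0.16 (SE) at an adjusted p of 0.0168), but leaving out any 1 of 4 samples ended the call: replicates 1 and 2 without FICZ and replicates 2 and 3 with it. The cyclin E genes encode partners of Cdk2 at S phase entry. Ccne1 stood at 397 in Jag1 only, 529 and 433 in TGFβ/IL-34, 639 and 527 in TGFβ/IL-34/FICZ, 318, 417 and 372 in TGFβ/IL-34/Jag1, and 376, 461 and 439.6 in TGFβ/IL-34/Jag1/FICZ, with overlap (log2 fold change 0.21 ± 0.19 (SE) at an adjusted p of 0.532). Ccne2 stood at 55.0 in Jag1 only, 106 and 235 in TGFβ/IL-34, 55.0 and 242 in TGFβ/IL-34/FICZ, 33.6, 58.7 and 54.4 in TGFβ/IL-34/Jag1, and 139.7, 131 and 172 in TGFβ/IL-34/Jag1/FICZ. All values with Jag1 and FICZ exceeded those with Jag1 but no FICZ, but its spread in other groups was wide (log2 fold change 1.60 ± 0.52 (SE) at an adjusted p of 0.0606, 0.00591 to 0.184 over the alternatives, and 0.0286 when paired by replicate number). The difference between the cyclins was not tested. Clspn, the adaptor of the replication checkpoint, stood at 39.8 in Jag1 only, 154 and 233 in TGFβ/IL-34, 89.8 and 300.0 in TGFβ/IL-34/FICZ, 26.0, 54.1 and 103 in TGFβ/IL-34/Jag1, and 255, 410.3 and 274 in TGFβ/IL-34/Jag1/FICZ (log2 fold change 2.51 ± 0.55 (SE) at an adjusted p of 0.00976). Its lowest value with FICZ was above the highest without. Ung, which removes uracil from DNA, stood at 92.9 in Jag1 only, 101 and 103 in TGFβ/IL-34, 136 and 107 in TGFβ/IL-34/FICZ, 100.2, 93.8 and 96.0 in TGFβ/IL-34/Jag1, and 145, 153 and 145 in TGFβ/IL-34/Jag1/FICZ. The groups did not overlap, but the change was not called (log2 fold change 0.61 ± 0.23 (SE) at an adjusted p of 0.102).

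**Figure D3:**
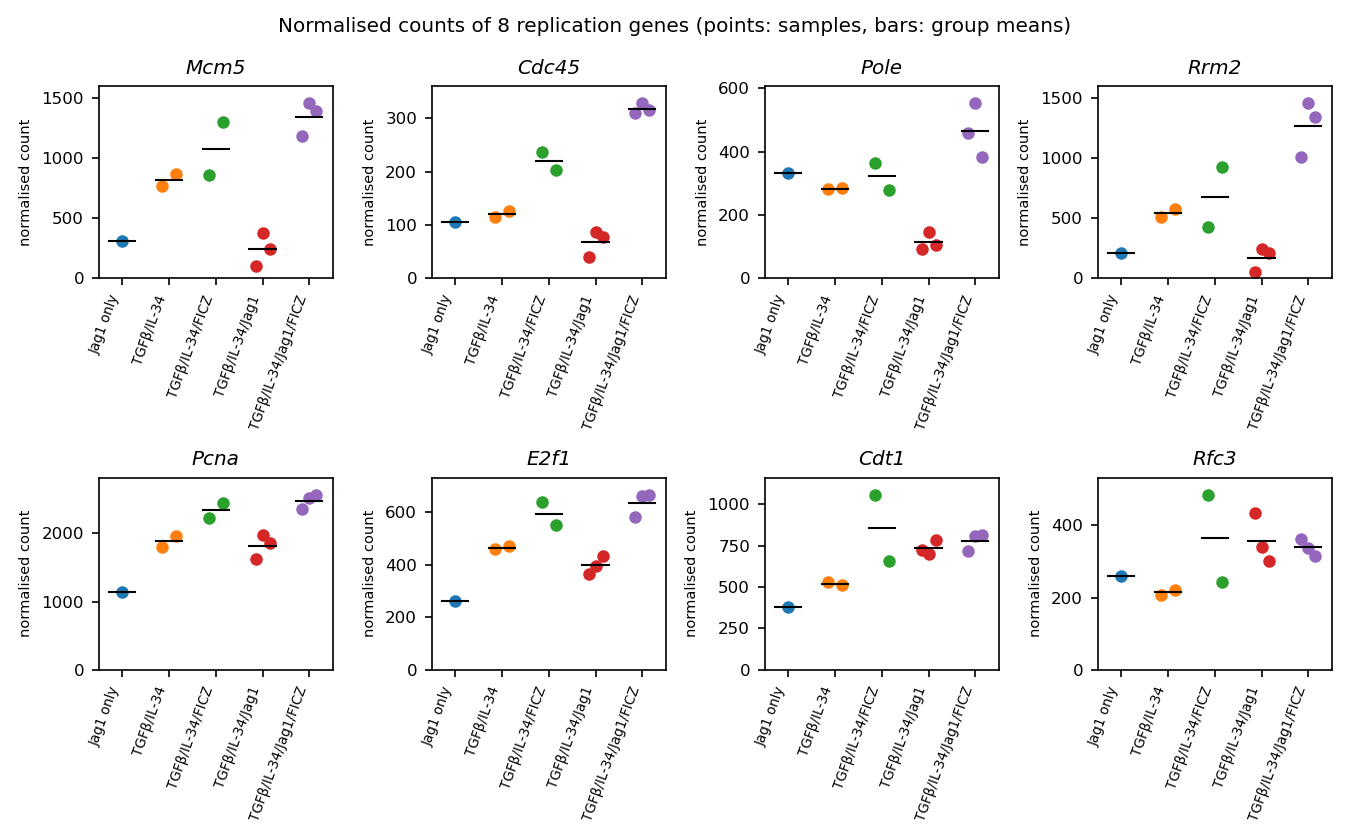
Normalised counts (linear axes from 0) of 8 of the 46 genes in the 11 samples by culture group, with points for samples and bars for group means. The means of Mcm5, Cdc45, Pole and Rrm2 were lowest in TGFβ/IL-34/Jag1 and highest in TGFβ/IL-34/Jag1/FICZ, Pcna and E2f1 were lowest in Jag1 only, and Cdt1 and Rfc3 were highest in replicate 1 of TGFβ/IL-34/FICZ.

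Without FICZ, part of the replication genes fell with Jag1. Of the 46, 8 fell and 0 rose (limma), against 3.96% of all genes that fell and 6.6% called in either direction. The 8 were Mcm5, Orc1, Prim1, Pole, Lig1, Tk1, Mcm6 and Rrm1. The median log2 fold change was −0.54, against −0.00 over all genes tested, and 7 of 46 were above 0 (49.5% of all genes). For 29 of 46 all TGFβ/IL-34/Jag1 samples lay below both TGFβ/IL-34 samples (22.8% of all genes), and for 3 above (23.7%). An unadjusted p under 0.05 was found for 24 (19% of all genes). Dropping TGFβ/IL-34 replicate 1, or replicate 2, left 0 calls. Leaving out TGFβ/IL-34/Jag1 replicate 1, or replicate 3, gave 1 call, and leaving out replicate 2 gave 7. When the library that stood apart was left out of the fit, 16 fell and 2 rose. For fits with a sample or library left out, here and in the other comparisons, the share of all genes called is not given. Whether such changes in number are particular to the 46 genes can therefore not be told. The comparison of Jag1 without FICZ shares the TGFβ/IL-34/Jag1 samples with the FICZ comparison above, so low values in that group move both.

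By role, 3 of 10 licensing genes fell, with Mcm5 the largest change (769 and 869.8 in TGFβ/IL-34 against 100.3, 376 and 247 with Jag1, log2 fold change −1.95 ± 0.45 (SE) at an adjusted p of 0.0281), and 0 of 6 helicase activation genes (Mcm10 −1.79, adjusted p = 0.0655). The adjusted p of Mcm5 ran from 0.00306 to 0.222 over the alternatives. Among polymerases, Prim1 (log2 fold change −1.46 ± 0.32 (SE) at an adjusted p of 0.025) and Pole (log2 fold change −1.32 ± 0.27 (SE) at an adjusted p of 0.018) fell. Of the nucleotide genes, Tk1 fell from 606 and 662 to 269, 375 and 249 (log2 fold change −1.11 ± 0.23 (SE) at an adjusted p of 0.0196) and Rrm1 fell by 0.82 on the log2 scale. Rrm2 had a change as large as that of Mcm5 but a wider error (log2 fold change −1.92 ± 0.56 (SE) at an adjusted p of 0.0739). Lig1 fell from 375 and 519.9 to 147, 262 and 176 (log2 fold change −1.22 ± 0.30 (SE) at an adjusted p of 0.0406). Pcna (−0.05), Slbp (−0.08) and Ung (−0.08) had log2 fold changes near 0, E2f1 one of −0.23, Ccne1 −0.38 and Ccne2 −1.71 (adjusted p = 0.128).

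The 7 genes with positive log2 fold changes did not pass the test. Rfc3 had the largest (209 and 221 against 434, 341 and 300.4, log2 fold change 0.72 ± 0.30 (SE) at an adjusted p of 0.214) and Cdt1 the next (529 and 513 against 726, 699 and 780.4, log2 fold change 0.49 ± 0.21 (SE) at an adjusted p of 0.24). In both, the groups did not overlap. Gins4 (0.17), Rfc4 (0.13), Pola2 (0.09), Chaf1b (0.09) and Rfc5 (0.03) followed, with adjusted p-values of 0.819 to 0.971. Rfc4 stood at 139.7 in Jag1 only, 156 and 136 in TGFβ/IL-34, 336 and 212 in TGFβ/IL-34/FICZ, 174, 149 and 155 in TGFβ/IL-34/Jag1, and 268, 278 and 202 in TGFβ/IL-34/Jag1/FICZ. Rfc5 stood at 369 in Jag1 only, 505 and 443 in TGFβ/IL-34, 1398 and 710.1 in TGFβ/IL-34/FICZ, 438, 469 and 550.3 in TGFβ/IL-34/Jag1, and 611, 624 and 708 in TGFβ/IL-34/Jag1/FICZ, highest in the library that stood apart. Of 5 monocyte genes tested, 5 fell in this comparison, as did 3 of 6 mast cell or basophil genes and 2 of 10 granulocyte progenitor genes. Over all genes tested, 3.96% fell and 2.64% rose. Of 9 stromal genes, 5 rose and 1 fell (Thy1), and stromal genes other than Thy1 summed to 28.1 and 28.6 in TGFβ/IL-34 against 407 to 1099 with Jag1. Their part in the values of the replication genes was not tested.

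**Figure D4:**
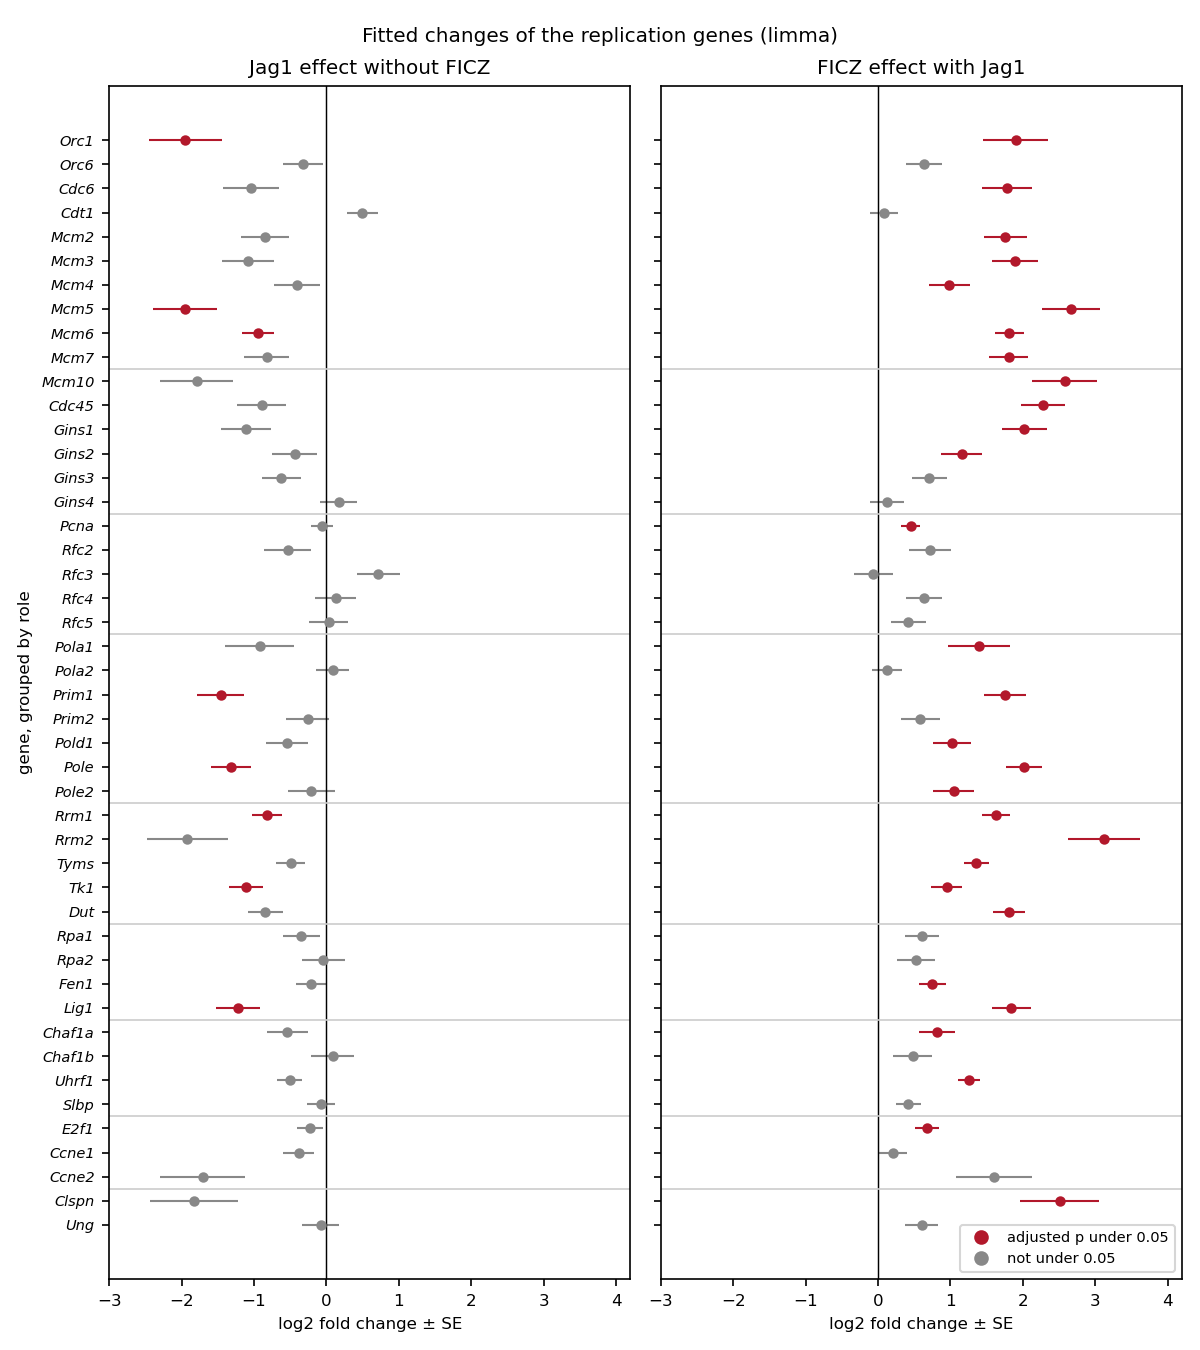
Log2 fold change with its standard error for each of the 46 genes, in blocks by role, for Jag1 without FICZ (left) and FICZ with Jag1 (right), from the limma fit on log2(normalised count + 1). Red points passed an adjusted p of 0.05: 8 on the left, all below 0, and 29 on the right, all above 0. The panels share the TGFβ/IL-34/Jag1 samples.

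Without Jag1, no replication gene passed the test for FICZ. Of the 46, 0 were called by limma (0.0153% of all genes rose and 0.00764% fell, 0.0229% together), while 16 had an unadjusted p under 0.05 (17.4% of all genes). The median log2 fold change was 0.44, against −0.02 over all genes, and 40 of 46 were above 0 (48.4% of all genes). For 29 genes both TGFβ/IL-34/FICZ samples lay above both TGFβ/IL-34 samples (22.6% of all genes). Tyms had the lowest adjusted p (log2 fold change 1.13 ± 0.22 (SE) at an adjusted p of 0.156), with 269 and 360.5 in TGFβ/IL-34 against 703 and 659.8 with FICZ. Dut (1.05), Lig1 (1.11) and Rfc5 (1.07) had log2 fold changes of similar size. Without replicate 1 of TGFβ/IL-34/FICZ 0 genes were called, and without replicate 2, which leaves the library that stood apart alone in its group, 14 rose and 3 fell. Rrm2, Mcm5 and Pole had log2 fold changes of 0.21, 0.37 and 0.18 here.

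With FICZ present, no replication gene passed the test for Jag1. Of the 46, 0 were called by limma (1.41% of all genes rose and 0.603% fell, 2.02% together), 4 had an unadjusted p under 0.05 (23.2% of all genes), and the median log2 fold change was 0.06, against 0.05 over all genes. Above 0 were 28 of 46 (53.1% of all genes), and 9 lay above without overlap (19.6%) and 3 below (16.2%). Log2 fold changes ran from −0.72 (Rfc2) to 1.06 (Cdc6, adjusted p = 0.159). Without replicate 2 of TGFβ/IL-34/FICZ 6 rose and 5 fell, and without replicate 1 0 were called.

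Against TGFβ/IL-34 with neither signal, 3 of the 46 genes rose in cultures with both (limma, against 3.12% of all genes that rose and 4.48% called in either direction). The median log2 fold change was 0.57, 42 of 46 were above 0 (50.5% of all genes), 18 had an unadjusted p under 0.05 (17.8%), and for 36 all samples with both lay above both without (28.8%). The 3 were Cdc45 (116 and 127 against 311, 328 and 315, log2 fold change 1.38 ± 0.34 (SE) at an adjusted p of 0.0479), Tyms (log2 fold change 0.87 ± 0.20 (SE) at an adjusted p of 0.0383) and Uhrf1 (log2 fold change 0.75 ± 0.17 (SE) at an adjusted p of 0.035). Dropping any 1 of the 5 samples left 0 of the 46 called by limma. The adjusted p over the alternatives ran from 0.000702 to 0.325 for Cdc45, 0.00103 to 0.379 for Tyms and 0.000373 to 0.354 for Uhrf1. Leaving the library that stood apart out of the fit gave 10 calls. The 4 with a negative log2 fold change were Ccne1 (−0.17), Tk1 (−0.16), Ccne2 (−0.11) and Orc1 (−0.04). In the same comparison 8 of 9 stromal genes, 5 of 10 granulocyte progenitor genes, 3 of 6 mast cell or basophil genes and 1 of 5 monocyte genes rose. Stromal genes other than Thy1 summed to 28.1 and 28.6 with neither signal and to 744 to 4908 with both. The part of these markers in the 3 calls was not tested.

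The interaction, that is, the FICZ effect with Jag1 minus that without, was positive for 36 of 46 genes (53.2% of all genes) with a median of 0.62 on the log2 scale, against 0.07 over all genes. None passed (limma, 0 of 46 called, against 1.17% of all genes called above 0 and 1.39% in either direction), and 19 had an unadjusted p under 0.05 (18.8% of all genes). The lowest adjusted p-values were those of Pole (interaction 1.84 ± 0.39 (SE) at an adjusted p of 0.0521) and Mcm6 (interaction 1.41 ± 0.31 (SE) at an adjusted p of 0.0615), and the largest differences those of Rrm2 (2.92, adjusted p = 0.116) and Clspn (2.72, adjusted p = 0.157). The most negative was Rfc3 (−0.74). Without replicate 1 of TGFβ/IL-34/FICZ 1 gene was called, without replicate 2 of that group 22 were (16 above 0 and 6 below), and 2 were without replicate 2 of TGFβ/IL-34/Jag1. It was therefore not shown that FICZ acted differently on these genes with and without Jag1.

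Across the 11 samples most of the genes ran in parallel. Pearson's r of a gene's log2 level with the mean of the other 45 had a median of 0.82, and it was above 0.8 for 27 genes and below 0.5 for 5. It was highest for Mcm7 (0.98), Rrm1 (0.97), Mcm5 (0.97), Cdc45 (0.96) and Gins1 (0.96), and lowest for Rfc3 (−0.04), Gins3 (0.31), Gins4 (0.33), Cdt1 (0.33) and Pola2 (0.40). These are descriptions over samples that share groups and libraries. Rfc3, Gins3 and Cdt1 had E2F words in their promoters as Mcm5 and Mcm7 did: of the genes with promoter sequence, 12 of 25 called for FICZ with Jag1 and 3 of 13 not called held one.

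The single Jag1 only sample, with neither TGFβ nor IL-34, had no replicate, so its values carry no test. Against the range of TGFβ/IL-34/Jag1 it lay above for 15 genes, below for 14 and within for 17. Gins3 was 3.30 times the mean of that group, Pole 2.90 times, Mcm6 2.51 times and Tyms 2.06 times, while Cdt1 was 0.514 times, Rpa1 0.606 times, Orc6 0.618 times and Pcna 0.625 times. Gins3, at 868 in Jag1 only, 397 and 394 in TGFβ/IL-34, 465 and 500.4 in TGFβ/IL-34/FICZ, 317, 287 and 185 in TGFβ/IL-34/Jag1, and 375, 543 and 365 in TGFβ/IL-34/Jag1/FICZ, was the 1 gene at its highest of all samples in Jag1 only. E2f1, Pcna, Cdc6, Cdt1, Orc6, Prim1, Prim2, Rfc5, Rpa1, Tk1 and Ung were at their lowest there. Licensing and helicase genes thus did not lie in 1 order: Mcm6 and Cdc45 were above the TGFβ/IL-34/Jag1 range, Mcm2, Mcm5 and Mcm7 within it and Cdc6 and Cdt1 below.

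Among 30 other replication genes, 8 rose and 0 fell with FICZ on Jag1 stroma, against 10.9% and 6.71% of all genes. The median log2 fold change of the 30 was 0.46. Ticrr (3.60), which brings Cdc45 to the ring, Dscc1 (3.10), of an alternative clamp loader, the histone chaperone Asf1b (2.15) and the fork protection gene Tipin (1.66) led. Levels of Dscc1 were low, at 16.7 and 25.4 in TGFβ/IL-34, 2.27, 6.10 and 2.31 in TGFβ/IL-34/Jag1, and 34.9, 32.4 and 39.4 in TGFβ/IL-34/Jag1/FICZ. With Jag1 in the absence of FICZ 3 fell, Ticrr (−2.67), Dscc1 (−2.35) and Tipin (−1.15), against 3.96% of all genes. In the interaction Ticrr was called (4.02), against 1.39% of all genes in either direction. Of 23 genes of cell cycle entry and its brakes tested, 6 rose and 1 fell with FICZ on Jag1 stroma, against 10.9% and 6.71% of all genes. Among those that passed, E2f8 (2.91) and E2f7 (2.90), repressors that act late in S phase, the Cdk4 and Cdk6 inhibitor Cdkn2b (2.25) and Myc (1.96) had the largest changes, and E2f2 fell by 0.83. With Jag1 in the absence of FICZ 0 of 23 were called by limma and 7 had an unadjusted p under 0.05 (19% of all genes).

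The genes listed under mitosis rose and fell in the same comparisons. Of 20, 20 rose with FICZ on Jag1 stroma (10.9% of all genes), with a median log2 fold change of 2.37 (−0.01 over all genes). With Jag1 in the absence of FICZ 15 fell (3.96% of all genes), with a median of −1.37 (−0.00 over all genes). In the interaction 5 were called above 0 (1.17% of all genes). Cyclin B1 (Ccnb1) rose by 3.30 and the proliferation marker Mki67 by 2.88 on the log2 scale. The summed level of the 20 was 7369 in Jag1 only, 9258 and 12131 in TGFβ/IL-34, 14914 to 15699 in TGFβ/IL-34/FICZ, 2978 to 5564 in TGFβ/IL-34/Jag1 and 20651 to 21080 in TGFβ/IL-34/Jag1/FICZ. Of 16 with promoter sequence, 1 held an E2F word, 14 a CCAAT box and 11 the cell cycle homology region. Whether the lists differed in size of change was not tested.

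Gene positions are from GENCODE vM39 on GRCm39, in which all 46 were found. Rrm2 lies on chromosome 12 from 24757811 to 24764145 (plus strand), Mcm5 on chromosome 8 from 75836140 to 75856231 (plus), Pcna on chromosome 2 from 132091082 to 132095234 (minus), Cdc45 on chromosome 16 from 18599195 to 18631551 (minus) and Pole on chromosome 5 from 110434172 to 110486287 (plus). Values were summed over transcripts of a gene, so exons and isoforms were not told apart. An exon of a protein-coding gene on the opposite strand overlaps 15 of the 46, among them Cdc45, Orc1, Mcm7, Lig1, Fen1, Tk1 and Ccne2, and whether the counting used strand is not given in the sources used here. Without strand, reads of these genes and their partners cannot be told apart, and Pole2 shares sequence with an overlapping coding gene model on its own strand.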

How the data were processed

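RNA from 11 sorted samples in 5 groups, as the labels give them, was sequenced in bulk. Transcript levels came from salmon, with Ensembl transcripts of GRCm39, and were collapsed by gene in tximport. The authors then scaled them with DESeq2 and deposited a normalised signal (normalised count) per gene. Tool versions and strandedness are not given in the sources used here. A sample sheet held conditions, which matched the labels in 11 of 11 samples, and experiment codes, which differed from the labels in 1. At the best single step per sample, 52.7% to 58.7% of low values (up to 15 steps) were whole within 0.1 steps, so reads could not be recovered, no count model was run, and counting error is unknown.

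The 13095 genes at 10 or more in at least 2 samples were fitted as log2(value + 1) with limma 3.58.1 in R 4.3.3 (trended empirical Bayes, 1 mean per group, all 11 samples, 6 residual degrees of freedom). Folds are on that scale, which understates changes of low genes. P-values were two-sided and were adjusted by the Benjamini-Hochberg method over all tested genes within each of 6 contrasts, with a threshold of 0.05. Adjusted p-values in the report come from that limma fit, or, where an alternative is named beside them, from limma under that alternative. A group reduced to 1 sample by leaving out another was assumed to have the spread of the remaining groups. The 46 genes, the other lists and the tests were chosen with earlier results of these data known. Each gene of the list could be named, and values in every sample were given for the gene with the largest called change in each role, for Pcna, Mcm2, Mcm5, Rrm2, E2f1, Ccne1, Ccne2, Ung and Slbp, and for genes against the common sign (other full values were chosen after they were seen). Scripts were tested on simulated data.

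As an alternative, the replicate number was a block over all 11 samples. In the Jag1 groups with TGFβ/IL-34, without and with FICZ, same-numbered samples share experiment codes. Their deviations from group means correlated at 0.153, 0.122 and 0.166 across genes. TGFβ/IL-34 samples share no experiment code in the labels with same-numbered samples of other groups, so for them the block does not follow the codes. Promoters and motif counts used RefSeq on GRCm38.p6, and gene positions used GENCODE vM39 on GRCm39. Coordinates were not converted between builds.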

Additional observations from a re-analysis of the deposited data

Results flagged for a closer look

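For 9 of the 46 genes, every TGFβ/IL-34/Jag1 sample lay below both TGFβ/IL-34 samples while every TGFβ/IL-34/Jag1/FICZ sample lay above both TGFβ/IL-34/FICZ samples, so that Jag1 went with lower levels without FICZ and higher levels with it. The interaction on the log2 scale was 2.10 for Cdc6, 1.63 for Mcm2, 1.20 for Mcm4, 1.41 for Mcm6, 1.43 for Cdc45, 1.84 for Pole, 2.92 for Rrm2, 0.78 for Uhrf1 and 0.36 for Ung. For Tk1 it was 1.32, and FICZ went with higher levels in every sample with Jag1 and lower levels in every sample without it. The limma test of the interaction was passed by none of the 10, with adjusted p from 0.0521 (Pole) to 0.558 (Ung). Over all genes, 22.8% lay below without overlap for Jag1 without FICZ, and 19.6% above for Jag1 with FICZ. For the pattern of Tk1 these shares were 23.6% above with Jag1 and 23.1% below without it. The share of all genes with both separations at once is not given here, so these patterns are not shown to be particular to the 46.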

How the results depend on the processing

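For FICZ with Jag1, the number of the 46 genes called (29) stayed within 1.5 times under every alternative setting of the fit, and 19 to 23 were called with 1 sample left out. For Jag1 without FICZ (8 called), dropping the filter on low values gave 4, array weights 20, a fit without the TGFβ/IL-34/FICZ library that stood apart 18, and leaving out 1 sample 0 to 7. For both signals together (3 called), quantile normalisation gave 6, array weights 26, the replicate number as a block 1, the flow cell as a block 1, the experiment code of the sample sheet as a block 0, the groups of the contrast alone 24, a fit without that library 10, and leaving out 1 sample 0. For the interaction (0 called), a pseudocount of 4 gave 1, the replicate number as a block 1, the sample sheet code as a block 4, and leaving out 1 sample 0 to 22. FICZ without Jag1 gave 0 to 17 and Jag1 with FICZ 0 to 11 with 1 sample left out. The causes were not tested. Shares of all genes called are given for the main fit only, so whether these changes in number are particular to the 46 genes cannot be told.

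No median log2 fold change of the 46 genes moved by more than the spread between replicates. The signs of 3 genes near 0 in Jag1 without FICZ turned: Pcna (0.0012 when blocked by the experiment code in the labels, and −0.1164 to 0.0265 with 1 sample left out), Slbp (0.0266 and −0.1488 to 0.0663) and Ung (0.1292 with quantile normalisation). With the replicate number as a block, FICZ with Jag1 still gave 29 calls (Pcna and Chaf1a lost, Ccne2 and Gins3 gained). In Jag1 with FICZ, same-numbered samples also share experiment codes in the labels, with correlations of deviations of 0.059 and 0.058. In the comparisons with TGFβ/IL-34, same-numbered samples share only a number, with correlations from −0.007 to 0.047. By the codes in the labels, TGFβ/IL-34 samples match TGFβ/IL-34/Jag1 samples of other numbers, and none matches replicate 1 of that group. With the replicate number as a block, Jag1 without FICZ gave 7 calls. With the experiment code in the labels as a block, Orc1, Lig1 and Rrm1 lost their calls there and Rrm2 gained one. Groups of 1 to 3 samples and unknown counting error limit every value.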
